A study of Mus musculus with 13 samples.

Results

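The 10 genes described here are the core of the transcriptional end of the Hippo pathway and some of its targets: the co-activators Yap1 and Wwtr1 (the gene of TAZ), the DNA-binding partners Tead1, Tead2, Tead3 and Tead4, and the target genes Ctgf, Cyr61, Amotl2 and Lats2. A peak was assigned to one of them where the authors' annotation tables gave that gene as the nearest one, with its start at most 100 kb away. Of 538751 peaks in 12 lists, 17 were assigned this way, to 6 of the 10 genes. The distance limit left out none: the farthest of the 17 lay 30.5 kb from its gene's start, and no peak named for any of the 10 genes lay beyond the limit.

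The peaks come from chromatin immunoprecipitation and sequencing in LβT2-FLAG-mFoxL2 cells, a mouse gonadotrope-type pituitary line transduced with a lentivirus that expresses GFP constitutively and FLAG-tagged mouse FOXL2 on doxycycline. All cells, controls included, carried this construct and had 48 h of doxycycline, 24 h of recovery and 2 h in 2% serum. Exposure to activin A (1 nM) or to vehicle then lasted 1 h, and the cells were fixed in 1% formaldehyde. SMAD2/3, FOXL2 (through the FLAG tag) and H3K27ac, a histone acetyl mark found at active regulatory DNA, were each profiled in 2 vehicle and 2 activin libraries, each pooled from 3 plates. FOXL2 is thus the induced, tagged protein in every library and not the endogenous one. Nothing in the labels says that replicates came from separate passages, so the spread between them may be technical. A Protein-A control is also described and was not analysed here.

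In the Hippo pathway, the kinases MST1/2 activate LATS1/2, which phosphorylate YAP and TAZ and so keep them in the cytoplasm. When the kinases are off, YAP and TAZ enter the nucleus, where they reach DNA through TEAD proteins, which read the motif GGAATG, and raise growth-related genes such as Ctgf and Cyr61. Some of their targets, including Lats2 and Amotl2, encode proteins that restrain YAP in turn. Activin receptors act through SMAD2 and SMAD3, which are known to meet YAP, TAZ and TEAD proteins on chromatin in other cell types, and FOXL2 is a forkhead factor that works with SMAD3 on the follicle-stimulating hormone β gene in gonadotropes.

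The TEAD motif is shown first, since it is a feature of the genes' own sequence that the peak rule did not use. RefSeq promoter windows of GRCm38.p6, from 250 bases before to 50 after the start, were at hand for 7 of the 10 genes (Yap1, Wwtr1, Tead2, Tead3, Cyr61, Amotl2 and Lats2). GGAATG, searched on both strands at the outermost start, was present in 6 of the 7, all but Tead2, against 13.5% of 17492 protein-coding genes. Cyr61, Amotl2 and Lats2 are included as YAP targets, which YAP reaches through TEAD proteins. Their motifs are therefore not independent of how the genes were chosen. The stretch around each motif is printed 5′ to 3′ on the gene's strand, with the motif (or CATTCC, its reverse complement) in capitals. The Tead3 sequence is the whole upstream window because a peak lay on it, and Lats2 is cut to 30 bases because its motif lay just past the start.
Yap1 (chr9:8004705-8004764, minus strand): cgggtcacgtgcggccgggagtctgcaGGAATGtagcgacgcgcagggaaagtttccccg
Wwtr1 (chr3:57576014-57576073, minus strand): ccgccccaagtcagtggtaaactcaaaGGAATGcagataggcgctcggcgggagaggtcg
Cyr61 (chr3:145650056-145650115, minus strand): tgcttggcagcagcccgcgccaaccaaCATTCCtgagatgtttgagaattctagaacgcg
Amotl2 (chr9:102717712-102717771, plus strand): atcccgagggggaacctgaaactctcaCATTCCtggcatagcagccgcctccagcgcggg
Lats2 (chr14:57746102-57746131, minus strand): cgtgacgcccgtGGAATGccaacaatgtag
Tead3 (chr17:28350806-28351055, minus strand): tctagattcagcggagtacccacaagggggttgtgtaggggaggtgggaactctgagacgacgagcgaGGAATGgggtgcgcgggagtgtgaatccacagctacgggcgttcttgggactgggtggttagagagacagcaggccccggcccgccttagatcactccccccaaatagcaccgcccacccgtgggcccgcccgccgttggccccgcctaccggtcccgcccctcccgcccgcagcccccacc

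Counted from the start, with the first transcribed base as +1, the motif began at -141 in Yap1, -136 in Wwtr1, -182 in Tead3, -103 in Cyr61, -65 in Amotl2 and 5 in Lats2. It lay on the gene's strand in Yap1, Wwtr1, Tead3 and Lats2 and on the other strand in Cyr61 and Amotl2. In the windows of other genes of the pathway, 8 of 22 Hippo kinases and regulators and 4 of 12 further YAP targets held it. Of the other motifs searched on both strands, the SMAD motif GGCGCC was in 3 of the 7 windows, against 15.4% of genes. The SMAD motif CAGACA (19% of genes), the forkhead motif TGTTTNC (18.4%), its stricter form TGTTTAC (2.93%), which it contains, and the AP-1 motif TGANTCA (7.03%) were in none of the 7. The windows were rich in G and C, with a median of 67.7% and a range from 57% in Cyr61 to 74% in Yap1, against a median of 56.3% over all genes. A match is a run of letters and not a measured binding site, and no TEAD protein was profiled here.

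**Figure D1:**
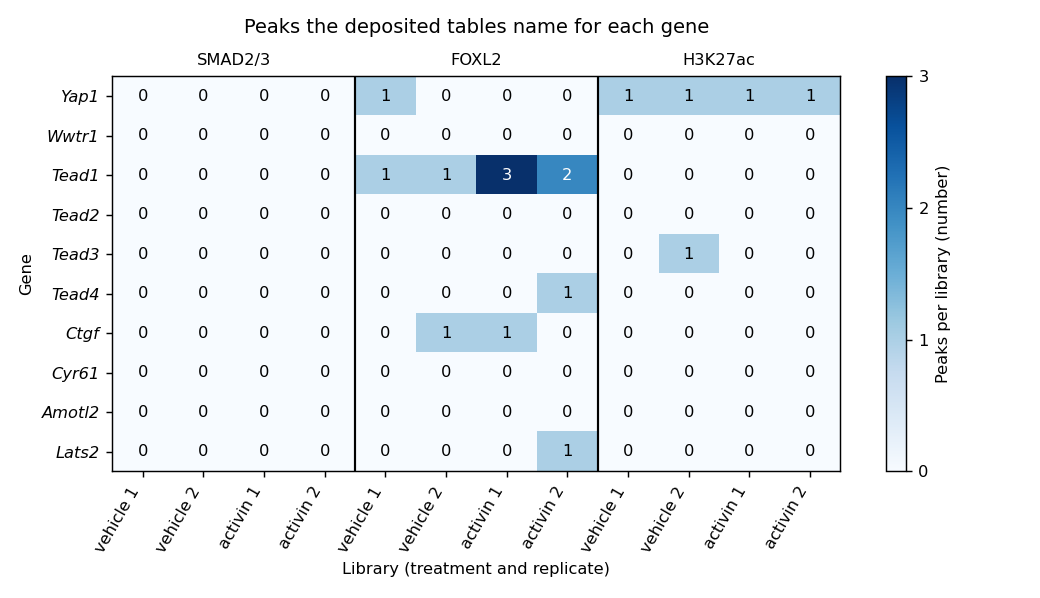
Number of peaks the deposited tables named for each gene (rows) in each library (columns, grouped by antibody, with treatment and replicate below). SMAD2/3 columns hold 0 throughout, Yap1 has 1 H3K27ac peak in each of the 4 libraries, and Tead1 has 1 and 1 FOXL2 peaks under vehicle against 3 and 2 under activin.

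No SMAD2/3 peak in any of the 4 libraries was named for any of the 10 genes, while 11.6% of 21900 protein-coding genes had one. The SMAD2/3 lists held 605 and 144 peaks under vehicle and 7784 and 5970 under activin, so under vehicle there was little to find for any gene. FOXL2 gave 12 of the 17 peaks, in 5 genes (Yap1, Tead1, Tead4, Ctgf and Lats2), against 56.2% of all protein-coding genes with at least 1 FOXL2 peak. H3K27ac gave the other 5 peaks, in Yap1 and Tead3, and 51.4% of all genes had one. No peak of any antibody was named for Wwtr1, Tead2, Cyr61 or Amotl2. By the deposited distances, 15 of the 17 peaks were over 10 kb from the annotated start of their gene and 1, at Tead3, was within 1 kb. Of the 15, the peak at Lats2 lay beside an inner start of its gene. The authors' fold enrichment, their ratio of signal to background at each peak, ran from 3.38 to 21.7.

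Per library, the FOXL2 lists named 2 and 2 peaks for the 10 genes under vehicle and 4 and 4 under activin. The groups did not overlap, and the activin lists were also longer, with 97701 and 94006 peaks against 86401 and 83834. Of the difference of 2 between the means, Tead1 gave 1.5, and Tead4 and Lats2 gave 0.5 each, from 1 library. Ctgf gave 0 and Yap1 -0.5. How often other sets of 10 genes differ in this way was not computed. H3K27ac gave 1 and 2 member peaks under vehicle and 1 and 1 under activin, and these overlapped. With 2 libraries against 2, a two-sided exact permutation test cannot give a p below 0.333, so no difference in peak number could pass 0.05. Peaks of 1 antibody that shared at least 1 base were merged into regions across its 4 libraries, which left 8 FOXL2 and 2 H3K27ac regions for the 10 genes. Of the 10 regions, 7 rested on a peak in a single library. Single-library regions made up 22.7% of the 107234 FOXL2 regions and 28.1% of the 48805 H3K27ac regions with an annotated start within 100 kb.

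Yap1 (ENSMUSG00000053110), the co-activator that the pathway restrains, had the one H3K27ac region of all 4 libraries that was named for any of the 10 genes. It lay upstream, at chr9:8017586-8017855, and 47.1% of H3K27ac regions were likewise called in all 4. Its fold was 6.55 and 4.15 under vehicle and 5.19 and 6.36 under activin, so the groups overlapped. The authors' table placed it 16 kb upstream of Yap1, in intergenic sequence, and the RefSeq start placed it 13.1 kb upstream. A FOXL2 peak, chr9:8017184-8017374, ended 211 bp from that region with a fold of 5.91, and it was called in vehicle replicate 1 alone. At the other end of the gene, chr9:7933411-7933805 held FOXL2 at the transcript's end, 71 kb downstream of the start, with a fold of 7.08 in vehicle replicate 1, no peak in vehicle replicate 2, and 23.5 and 14.9 in the activin libraries. The deposited table names that last region for Gm20416, so it is not among the 17. Wwtr1, whose product TAZ is the paralog of YAP, had no FOXL2 region in all 4 libraries within 100 kb and 1 H3K27ac region, at the start of its neighbour Commd2, 75.6 kb upstream.

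Tead1 (ENSMUSG00000055320), one of the DNA-binding partners, carried 7 of the 12 FOXL2 peaks, in 3 regions upstream of the gene. The strongest, chr7:112648646-112649325, lay 30.5 kb upstream, in an intron of ENSMUSG00000085945, and was found in all 4 libraries, as were 47.1% of FOXL2 regions. Its fold was 13.7 and 11.5 under vehicle and 17 and 21.7 under activin, and its summits in the 4 lists fell within 14 bp of each other. By the authors' -log10 q it stood at percentiles 75.5 and 74.8 of the vehicle lists and 83.5 and 90.8 of the activin lists. Both activin folds were above both vehicle folds, but each fold is set against its own library's background, so no change in occupancy is read from them.

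The second Tead1 region, chr7:112650451-112650805, 28.9 kb upstream, had no peak in either vehicle library and a fold of 8.57 and 7.39 in the activin libraries. It was the one region named for any of the 10 genes with peaks in both activin libraries and in neither vehicle library, a pattern held by 8.72% of FOXL2 regions. The third, chr7:112660178-112660362, 19.2 kb upstream, was called in activin replicate 1 alone, with a fold of 4.17. The number of FOXL2 peaks named for Tead1 was therefore 1 and 1 under vehicle and 3 and 2 under activin (means 1 and 2.5). The difference of 1.5 peaks gave an exact two-sided permutation p of 0.333 (n = 2 and 2), the smallest this design allows. The count of named peaks leaves out the FOXL2 regions inside the gene, described next. How many other genes had more peaks in both activin libraries was not computed.

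The nearest-gene rule misses most of what lies at Tead1, because other annotated starts are nearer to the peaks in its introns. The RefSeq span of Tead1 is 227 kb long, against a median of 17.2 kb for protein-coding genes, and 27 FOXL2, 12 H3K27ac and 1 SMAD2/3 regions lay within it. None of these 40 was named for Tead1 in the tables: 28 were given to AC126052.1, 7 to Rassf10 and 5 to 2310014F06Rik. Of the 27 FOXL2 regions, 16 were called in all 4 libraries, which is 7.04 per 100 kb against 3.57 per 100 kb over the spans of 21887 protein-coding genes. In both activin libraries and neither vehicle library there was 1 of the 27, chr7:112764668-112764959 (folds 4.54 and 2.62). The reverse pattern was held by chr7:112709262-112709642 (folds 3.39 and 4.21 under vehicle). Over all FOXL2 regions within 100 kb of a protein-coding start, these patterns made up 8.49% and 3.42%. H3K27ac regions in all 4 libraries numbered 6, or 2.64 per 100 kb against 1.79 over all genes. These are counts of regions in 1 long gene, given as a description.

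Among the FOXL2 regions of the Tead1 introns, 3 are given in full, chosen after their values were seen because they had high folds and differed in pattern. At chr7:112796863-112797569, 118 kb into the gene, the fold was 15.1 and 16.4 under vehicle and 31.8 and 30.1 under activin, with both activin libraries above both vehicle libraries. At the neighbouring chr7:112797751-112798375, not one of the 3, the fold was 21 and 19 under vehicle and 14 and 21.6 under activin, with overlap. At chr7:112843041-112843958, 164 kb in, it was 26 and 19.3 under vehicle and 21.6 and 23.5 under activin, and the groups overlapped. At chr7:112788337-112788797, 109 kb in, it was 16.2 and 15.4 under vehicle and 12.1 and 12.8 under activin, with the activin libraries lower. Over all 16 FOXL2 regions of the span called in all 4 libraries, both activin folds were above both vehicle folds at 5, against 26.3% of the 58444 such FOXL2 regions in the genome, and below both at 5, against 27.2%. Of the same 16, 7 overlapped an H3K27ac region present in both activin libraries, against 20.8% of the 58444.

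The only SMAD2/3 region in both activin libraries inside the span of any of the 10 genes also lay in Tead1. It was chr7:112801750-112802022, in an intron 122 kb from the start, with no peak under vehicle and a fold of 5.47 and 6.12 under activin. Over all 21887 protein-coding genes, 8.04% had a SMAD2/3 region of both activin libraries in their span, at 0.279 per 100 kb against 0.44 per 100 kb in Tead1. Regions in the activin libraries alone were 54.1% of all SMAD2/3 regions with an annotated start within 100 kb. It sat inside an H3K27ac region, chr7:112799819-112803998, that was called in all 4 libraries with folds of 4.21 and 4.3 under vehicle and 3.92 and 3.46 under activin. On the SMAD2/3 region itself, FOXL2 was called in vehicle replicate 2 alone. Further on, 139 kb from the start, chr7:112817916-112818400 held H3K27ac in both activin libraries (folds 3.99 and 4.06) and in neither vehicle library, as did 5.82% of H3K27ac regions. It overlapped a FOXL2 region of all 4 libraries, chr7:112817635-112818023, whose folds were 3.15 and 3.93 under vehicle and 4.71 and 5.2 under activin.

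**Figure D2:**
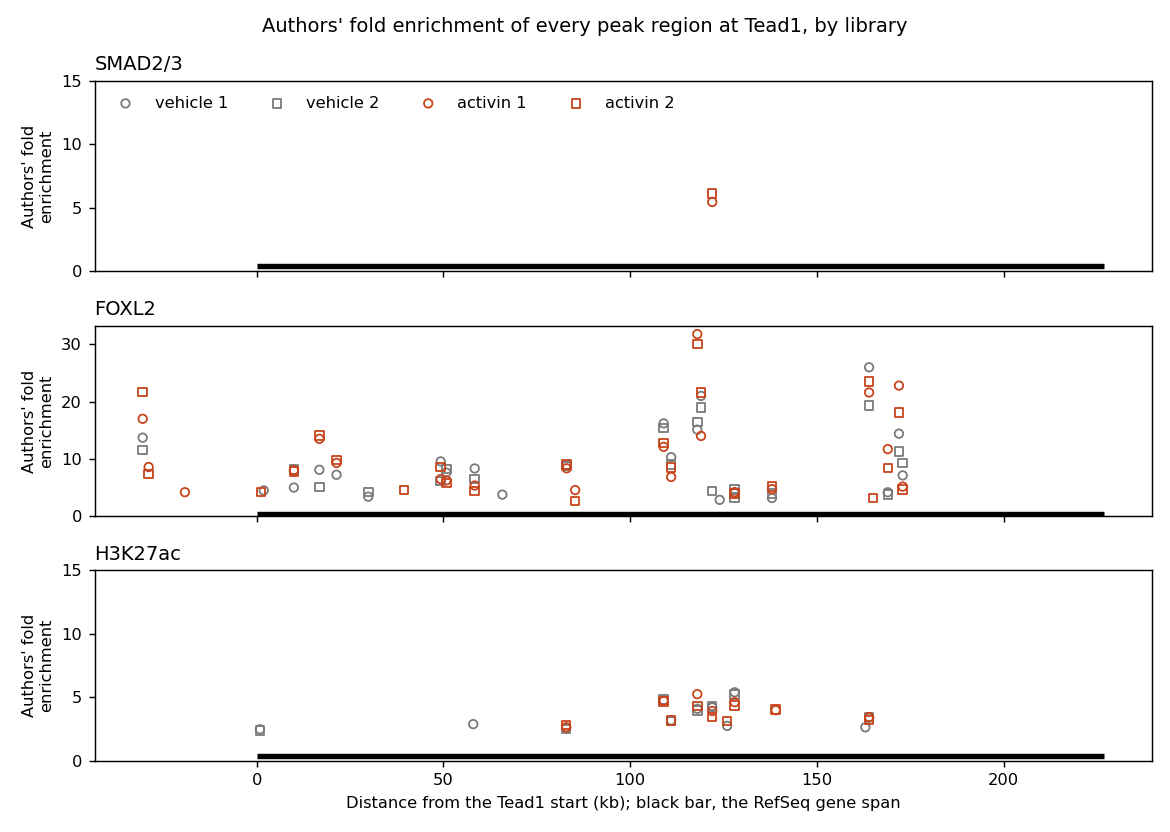
Authors' fold enrichment (vertical axis, linear) of each region named for Tead1 or inside its RefSeq span, by distance of the region's centre from the start (kb), with 1 point per library that called a peak, grey for vehicle and orange for activin, circles for replicate 1 and squares for replicate 2. The tallest FOXL2 points, 31.8 and 30.1 in the activin libraries, lie 118 kb into the gene, and the single SMAD2/3 region, at 122 kb, has activin points only.

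Tead2, Tead3 and Tead4 had few or no peaks of their own. Tead2 had none. Tead3 (ENSMUSG00000002249) had 1, at its promoter: an H3K27ac peak of vehicle replicate 2, chr17:28350919-28351111, with a fold of 3.38. It lay 114 to 306 bp upstream of the outermost start and covered the GGAATG at -182 capitalised in the Tead3 sequence above. None of the other 3 H3K27ac libraries had a peak within 1 kb of a Tead3 start. Tead4 (ENSMUSG00000030353) had 1 FOXL2 peak, chr6:128305754-128305976, 5.13 kb upstream, in activin replicate 2 alone with a fold of 5.97. In an intron of Tead4, 35.6 kb from the start, the activin replicate 2 libraries of SMAD2/3 (chr6:128265027-128265207, fold 5.83) and FOXL2 (chr6:128265061-128265230, fold 4.9) had overlapping peaks, which no other library of either antibody shared. The H3K27ac library of the same number had a peak next to them, chr6:128265268-128265605, with a fold of 2.89.

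The target genes had 3 peaks, each in a single library. Ctgf (ENSMUSG00000019997; Ccn2 in RefSeq), a secreted matricellular protein and the usual readout of YAP activity, had 2 FOXL2 peaks downstream. The first, chr10:24606729-24606966, was in activin replicate 1 (fold 5.82, 11.1 kb from the start), and the second, chr10:24622592-24622762, in vehicle replicate 2 (fold 3.99, 27 kb). No H3K27ac or SMAD2/3 peak of any library was centred within 100 kb of Ctgf, and the nearest H3K27ac region of all 4 libraries was 274 kb away, at Med23. Lats2 (ENSMUSG00000021959), the kinase that phosphorylates YAP, had 1 FOXL2 peak, chr14:57734187-57734355, in activin replicate 2 with a fold of 5.22. It was 11.8 kb from the outermost start and 63 to 231 bp downstream of an inner RefSeq start. Cyr61 (Ccn1 in RefSeq), a relative of Ctgf, and Amotl2, an angiomotin that binds YAP, had no peak named for them. Inside Amotl2 there was 1 FOXL2 peak, chr9:102733186-102733349, in activin replicate 1 (fold 3.64), which the table gives to Gm5627.

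To see what surrounded the genes whatever name the tables gave, every region centred within 100 kb of the 10 starts was taken. These windows held 103 FOXL2 regions, of which 8 were named for the gene itself, 57 H3K27ac regions, of which 2 were, and 7 SMAD2/3 regions, of which none was. FOXL2 was present in all 4 libraries at 30 of the 103 regions, against 47.1% of the 74767 FOXL2 regions within 100 kb of any protein-coding start. It was present in both activin libraries and neither vehicle library at 13, against 8.49%, and in the reverse pattern at 2, against 3.42%. Of those 13, 7 lay in the Tead3 window, 6 of them in a stretch 67.3 to 84.4 kb upstream of Tead3 annotated to another gene, ENSMUSG00000024222, with folds between 2.53 and 6.75. By gene, 8 of the 10 windows held a FOXL2 region of all 4 libraries (80.5% of protein-coding genes did) and 9 held such an H3K27ac region (74.8% did). H3K27ac was present in all 4 libraries at 30 of 57 regions, against 49.2%, in the activin libraries alone at 1, against 5.79%, and in the vehicle libraries alone at 3, against 5.52%.

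SMAD2/3 regions present in both activin libraries stood in the windows of 2 of the 10 genes, Tead2 and Tead3, while 29.6% of protein-coding genes had one. In the Tead2 window it was chr7:45137498-45137856, 78.1 kb upstream beside Flt3l, with no peak under vehicle and folds of 4.76 and 4.59 under activin. The Tead3 window had 3. At chr17:28325060-28325257, 25.6 kb downstream beside Rpl10a, there was no peak under vehicle, and the activin folds were 3.21 and 5.93. At chr17:28431682-28432258, 81.2 kb upstream, peaks were called in all 4 libraries with folds of 5.39 and 3.76 under vehicle and 12.5 and 13.7 under activin. At chr17:28438039-28438593, 87.5 kb upstream, the fold was 5.18 in vehicle replicate 1, 11.1 and 13.9 in the activin libraries, and no peak was called in vehicle replicate 2. The last pair lay in introns of ENSMUSG00000024222, the gene that also held the cluster of FOXL2 regions. Over all 7 SMAD2/3 regions, 1 was in all 4 libraries, against 1.34% of SMAD2/3 regions near a protein-coding start, and 2 were in the activin libraries alone, a pattern that 55.2% of them had.

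All 4 of the regions in both activin libraries overlapped both a FOXL2 and an H3K27ac region of the activin libraries (Wilson 95% interval 51% to 100%, counting error only). Over all SMAD2/3 regions of this kind near a protein-coding start, 79.9% overlapped FOXL2 and 78.9% overlapped H3K27ac. Both shares lay inside that interval, which is too wide with 4 regions to tell a difference. The 4 were also not independent. Of them, 3 lay in the Tead3 window, and the upstream pair there shared 1 H3K27ac region, chr17:28427903-28442450. The SMAD2/3 and FOXL2 summits at the 4 regions were 6 to 67 bp apart within each activin replicate. The SMAD2/3 region in the Tead1 intron, 122 kb from the start, lay outside the windows and is not among the 4. It overlapped an H3K27ac region of both activin libraries but no such FOXL2 region.

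**Figure D3:**
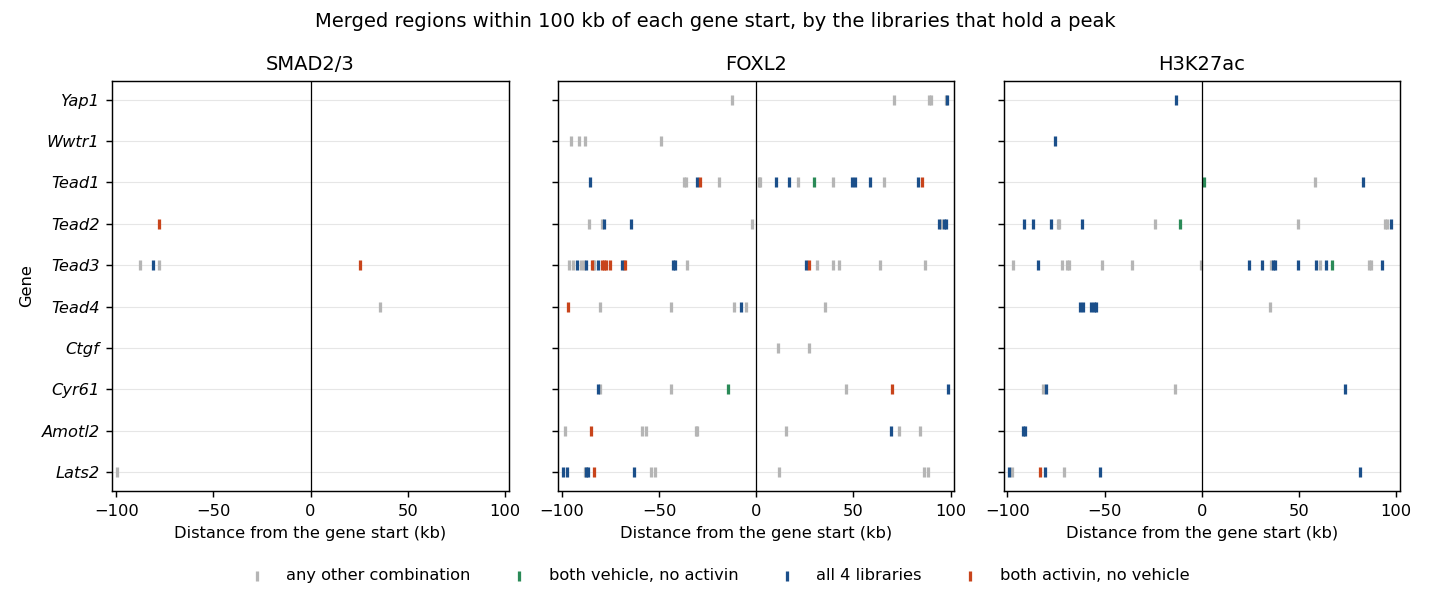
Each tick is a merged region, placed by the distance of its centre from the start of the gene in that row (kb, negative upstream), in 1 panel per antibody, coloured by the libraries that called it. SMAD2/3 ticks are confined to 4 rows and orange FOXL2 ticks cluster in the Tead3 row, while the Ctgf row has 2 grey FOXL2 ticks and nothing else.

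At the starts themselves no H3K27ac call held across libraries. H3K27ac regions present in all 4 libraries lay within 1 kb of a start for none of the 10 genes, against 44.1% of 17492 protein-coding genes. With windows of 2 kb and 5 kb, chosen after the data were seen, the count was still 0 of 10. At the Tead1 start, chr7:112680126-112680680 was called in both vehicle libraries, with folds of 2.48 and 2.37, and in neither activin library. Both calls were near the floor of their lists, with a −log10 q of 1.17 and 1.44 (percentiles 1.08 and 4.94). The region was named for 2310014F06Rik, whose start is nearer. Of H3K27ac regions near a protein-coding start, 5.52% were in the vehicle libraries alone. At Tead3, H3K27ac was called in 1 vehicle library, as above. At the other 8 genes no H3K27ac library had a peak within 1 kb of a start. FOXL2 was called within 1 kb of a start for Lats2 alone, in 1 library; 6.33% of genes had FOXL2 there in all 4 libraries. No SMAD2/3 library had a peak within 1 kb of any member's start, and 0.6% of genes had one in both activin libraries.

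Distances were measured to the nearest region as well. From the 10 starts to the nearest H3K27ac region of all 4 libraries it was 13 kb at Yap1, 20.4 kb at Tead3 and between 51.5 and 274 kb at the other 8, with a median of 67 kb. All 10 were farther than the median of 10.1 kb over protein-coding genes. For FOXL2 regions of all 4 libraries the distance ran from 7.79 kb at Tead4 and 9.81 kb at Tead1 to 227 kb at Ctgf, and 8 of 10 were farther than the median of 23.5 kb. For SMAD2/3 regions of both activin libraries it ran from 25.5 kb at Tead3 to 1082 kb at Yap1, with a median of 174 kb against 221 kb over all genes, and 4 of 10 were farther than that.

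**Figure D4:**
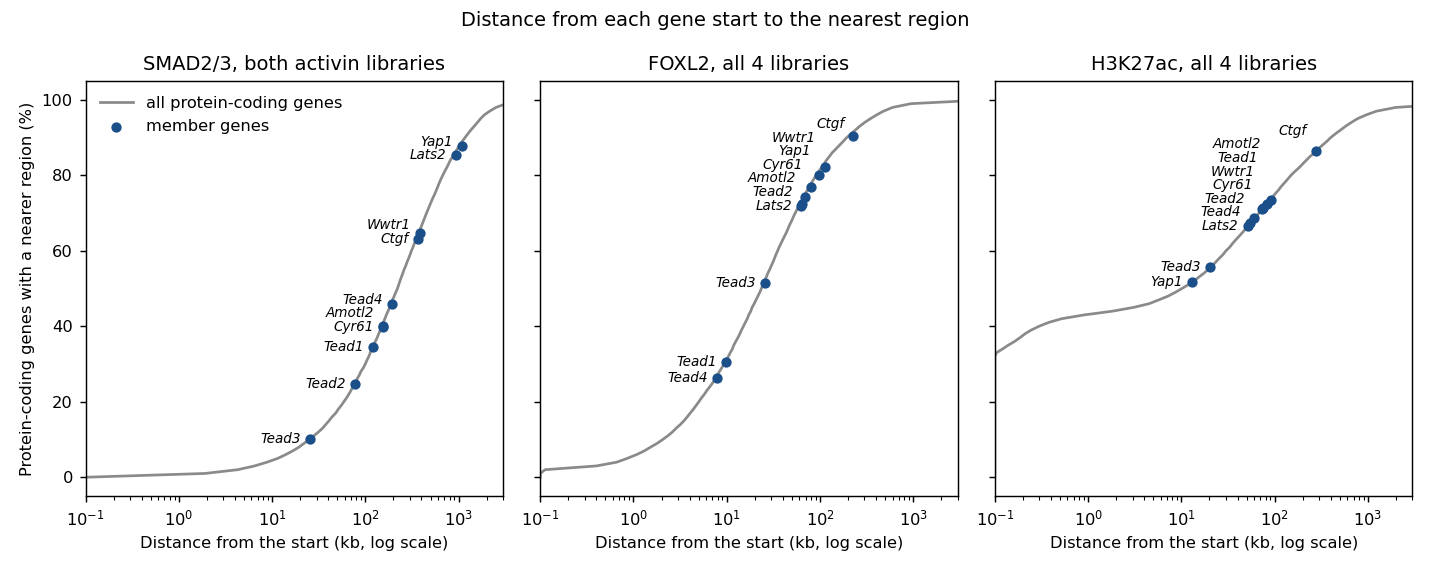
Distance from a gene's start to the nearest region (kb, log axis) against the percentage of protein-coding genes with a nearer region, for 3 kinds of region. The grey line is all 17492 protein-coding genes and the points are the 10 genes; in the H3K27ac panel every point lies above 50%, from Yap1 at 51.7% to Ctgf at 86.4%.

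Markers of the gonadotrope were read in the same way to check the cells against their label. Of 9 gonadotrope markers, 7 (Cga, Lhb, Gnrhr, Foxl2, Pitx1, Gata2 and Egr1) had H3K27ac within 1 kb of a start in all 4 libraries, Nr5a1 in 1 library and Fshb in none. All cells also carried the mouse FOXL2 construct, and whether its sequence added to the Foxl2 call was not tested. Of 6 markers of other pituitary lineages with a start in the table, none had H3K27ac there in all 4 libraries, although Neurod1 did in 3. The number of reads behind each list is unknown.

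The same counts were made for the rest of the pathway. Among 25 further kinases and regulators of the Hippo pathway, 7 had a SMAD2/3 peak named for them, and 4 (Limd1, Mob1a, Vgll4 and Amot) had a SMAD2/3 region in both activin libraries and neither vehicle library, against 7.1% of protein-coding genes. FOXL2 regions of all 4 libraries were named for 13 of the 25, against 38% of genes, and H3K27ac regions of all 4 libraries for 16, against 42%. For the 10 member genes both counts were 1, from Tead1 and Yap1. Among 18 further YAP target genes, Nuak2 alone had a SMAD2/3 peak, none had an activin-only region, and 8 had FOXL2 and 8 had H3K27ac in all 4 libraries. No test was made of the difference between these lists.

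Limd1, a LIM-domain protein that binds LATS kinases, held the strongest of these SMAD2/3 regions, chr9:123496340-123496748, in its first intron 17.9 kb from the start, with folds of 10.6 and 10 under activin. Mob1a, the co-activator of the LATS kinases, had a pair upstream. They were chr6:83322993-83323566 (3.07 kb, folds 8.03 and 7.01) and chr6:83323865-83324141 (2.35 kb, folds 5.13 and 5.1). Vgll4, which competes with YAP for TEAD proteins, had chr6:114946797-114947200, with folds of 6.8 and 6.86. The authors' annotation placed it 72 kb upstream of the start it used and also in an intron of Vgll4. Amot, an angiomotin like Amotl2, had chrX:145524549-145524813 (19.5 kb upstream, folds 6.13 and 7.33) and chrX:145516759-145517131 (11.8 kb upstream, folds 5.04 and 4.42). All 6 regions overlapped a FOXL2 region found in all 4 libraries, and all but the Amot region at 19.5 kb overlapped an H3K27ac region found in all 4. Such overlap was common: 79.9% of SMAD2/3 regions of both activin libraries near a protein-coding start overlapped FOXL2 and 78.9% H3K27ac. Those shares count FOXL2 and H3K27ac regions of both activin libraries, and the share for all 4 libraries was not computed.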

How the data were processed

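ChIP-seq peak lists of 12 libraries were used (3 antibodies, 2 treatments, 2 replicates), grouped by the sample labels. Per the submitters' processing notes the tools were Bowtie2, MACS2 and HOMER and the build GRCm38 (mm10); versions, parameters and the use of a control are not given in the sources used here. Peaks were called per library. The deposited lists give the authors' fold (a linear ratio over background), −log10 p and −log10 q and a score derived from q, and the deposited annotation tables give the nearest gene and the signed distance to its start. The lowest deposited −log10 q was 1.3 to 1.78 for SMAD2/3 and FOXL2 and 1 to 1.01 for H3K27ac. Read depth is unknown. These values were used only to describe or filter peaks of the list they stand in.

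Peaks of 1 antibody sharing at least 1 bp were merged (Python 3.11.15, pandas 2.3.3). Activin-only means a peak in both activin libraries and none under vehicle. Starts came from the RefSeq promoter table for 7 genes and from the deposited distances for Tead1, Tead4 and Ctgf. RefSeq background shares cover 17492 protein-coding genes with a promoter window, or 21900 by name. Peak numbers per gene were compared by exact permutation over libraries. All 10 genes are named with their regions. Within a gene, regions are described where SMAD2/3 was in both activin libraries, at the start, or else strongest by rank. From 2 lists of other pathway genes, those with an activin-only SMAD2/3 region are named. Regions inside gene spans were examined, and those described were picked, after their values were seen. Members and lists were chosen with earlier results of these data known. Merging and motif search were tested on simulated data. Alternatives were a −log10 q of at least 5, merging at 100 bp, a 50 kb limit, equal list lengths, a replicate block and leaving out each library.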

Additional observations from a re-analysis of the deposited data

How the results depend on the processing

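The number of activin-only regions of the 10 genes was 0 for SMAD2/3, 1 for FOXL2 and 0 for H3K27ac, and it was 2, 13 and 1 when every region within 100 kb of a start was counted whatever gene it was named for. Leaving out 1 library in turn gave 1 to 3 for FOXL2 (3 without activin replicate 1 or activin replicate 2, where the other one alone must hold a peak) and 0 for the other antibodies. The difference in member peaks per library, activin minus vehicle, was 2 for FOXL2 and fell to 1.65 when scaled to the mean list length; for H3K27ac it was -0.5 and turned to 0.5 with peaks at a −log10 q of at least 5. The H3K27ac peaks of vehicle replicate 2 at Yap1 (−log10 q 4.52) and Tead3 (3.86) lay below that limit. The other H3K27ac peaks named for the 10 genes lay above it. What set the differences between treatments was not tested. Without 1 library the FOXL2 difference stayed at 2 and the H3K27ac difference ran from -1 to 0. The labels do not say that replicate numbers pair libraries, and the deviations of libraries with the same number correlated at 0.0195 for SMAD2/3, 0.16 for FOXL2 and -0.034 for H3K27ac. A replicate block left the differences at 0, 2 and -0.5, and its smallest exact permutation p is 0.5, the value for Tead1. Hippo regulators with an activin-only SMAD2/3 region numbered 4, and 4 to 7 when 1 library was left out (7 without activin replicate 2); for other YAP targets the count was 0, and 0 to 1. Chosen after the data were seen: H3K27ac within 1 kb of a start was found for 2 of the 10 genes when a peak in any library was enough (49.7% of genes), and SMAD2/3 of both activin libraries within 50 kb for 1 gene. GGAATG was in 6 windows, also over any start, and in 5 when only the 250 upstream bases were searched (11.6% of genes). In all, 68 of 79 alternatives stayed within 1.5 times or the spread between replicates. Many of these could not have moved, so the total does not measure stability. No SMAD2/3 peak was named for any of the 10 genes, which fixed those counts at 0. The farthest of their peaks lay 30.5 kb from its start, inside the 50 kb limit. Because no SMAD2/3 region was named for a member, the planned shares overlapping FOXL2 or H3K27ac have no value. The shares given above are for the 4 window regions, which were named for other genes.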
